A study of Mus musculus with 2 samples.

Results

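Hemidesmosomes are the junctions that fasten basal epithelial cells to the basement membrane. The integrin α6β4 spans the cell membrane and binds laminin outside the cell, collagen XVII (also named BP180) spans it beside the integrin, and the plakin dystonin (in its epithelial form, BP230) ties the plaque to keratin filaments inside. In the cornea these junctions hold the epithelium on the stroma, and collagen XVII and integrin α6 are also widely used to mark basal and progenitor cells of stratified epithelia.

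The regions described here lie around the 4 genes that encode these parts: Itga6 and Itgb4 for the integrin, Col17a1 for collagen XVII and Dst for dystonin. They come from chromatin immunoprecipitation followed by sequencing (ChIP-seq) of corneal epithelium from mice at postnatal day 7 (P7). All samples belonged to 1 group of 2 replicate immunoprecipitates of K14 DN-Clim tissue, in which the antibody recognised the Myc tag on the DN-Clim protein. DN-Clim is a dominant-negative form of Clim, a nuclear cofactor of LIM-domain transcription factors that has no DNA-binding domain of its own, and K14 stands for the keratin 14 promoter, which is active in basal epithelial cells. Every sample carried the transgene. Input DNA and tissue without the tagged protein were not analysed here, so the counts have no control library beside them. Recovery of the tagged protein itself at a region was therefore not tested. The labels do not say whether the replicates came from separate animals. The lists carry no read totals, and the depth behind a region is unknown.

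A called region was counted to a locus when its midpoint lay in a fixed mm9 window: chromosome 19 from 47620000 to 47870000 for Col17a1, chromosome 11 from 115730000 to 115970000 for Itgb4, chromosome 2 from 71480000 to 71800000 for Itga6, and chromosome 1 from 33860000 to 34470000 for Dst. The windows span 250, 240, 320 and 610 kb. They held 27 of the 25592 regions of sample 1 and 47 of the 42619 regions of sample 2. No annotation on mm9 was used here, so a region is given by its place in the window and not as promoter, exon or intron, and the position of each gene within its window was not checked. The windows can hold parts or the whole of neighbouring genes, and a region named by its locus was not assigned to that gene. In the gene order of the RefSeq table for GRCm38, the nearest protein-coding neighbours are Slk and Sfr1 for Col17a1, Sap30bp and Galk1 for Itgb4, Dlx2 and Pdk1 for Itga6, and Bend6 and Ccdc115 for Dst.

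All 4 loci held regions found in both samples, 22 in all. Overlap by 1 bp or more with a region of the other sample made a region shared. The Itga6 window had the most, with 8 shared regions, followed by Col17a1 and Dst with 5 each and Itgb4 with 4. Per length, Itga6 held 25 shared regions per Mb, Col17a1 20, Itgb4 16.7 and Dst 8.20, against 7.98 per Mb over chromosomes 1 to 19 and X. In sample 1 the windows held 6 regions at Col17a1, 5 at Itgb4, 9 at Itga6 and 7 at Dst. In sample 2 these counts were 8, 10, 14 and 15. Sample 2, the longer list, thus had more regions at each locus, and the difference in counts was greatest at Dst.

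Scores are the peak caller's own values as deposited by the authors. What they measure is not stated, so each is also given as its percentile within its own list, the share of regions in that list that score lower, with ties counted at their mean rank. The 27 sample 1 regions scored between 80.58 and 373.84 and the 47 sample 2 regions between 50.57 and 242.32. Regions were narrow when under 105 bp in sample 1 or under 100 bp in sample 2. Each boundary is the emptiest 5-bp bin between the most frequent shorter and longer widths of the whole list. Whether the widths form separate populations was not tested.

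**Figure D1:**
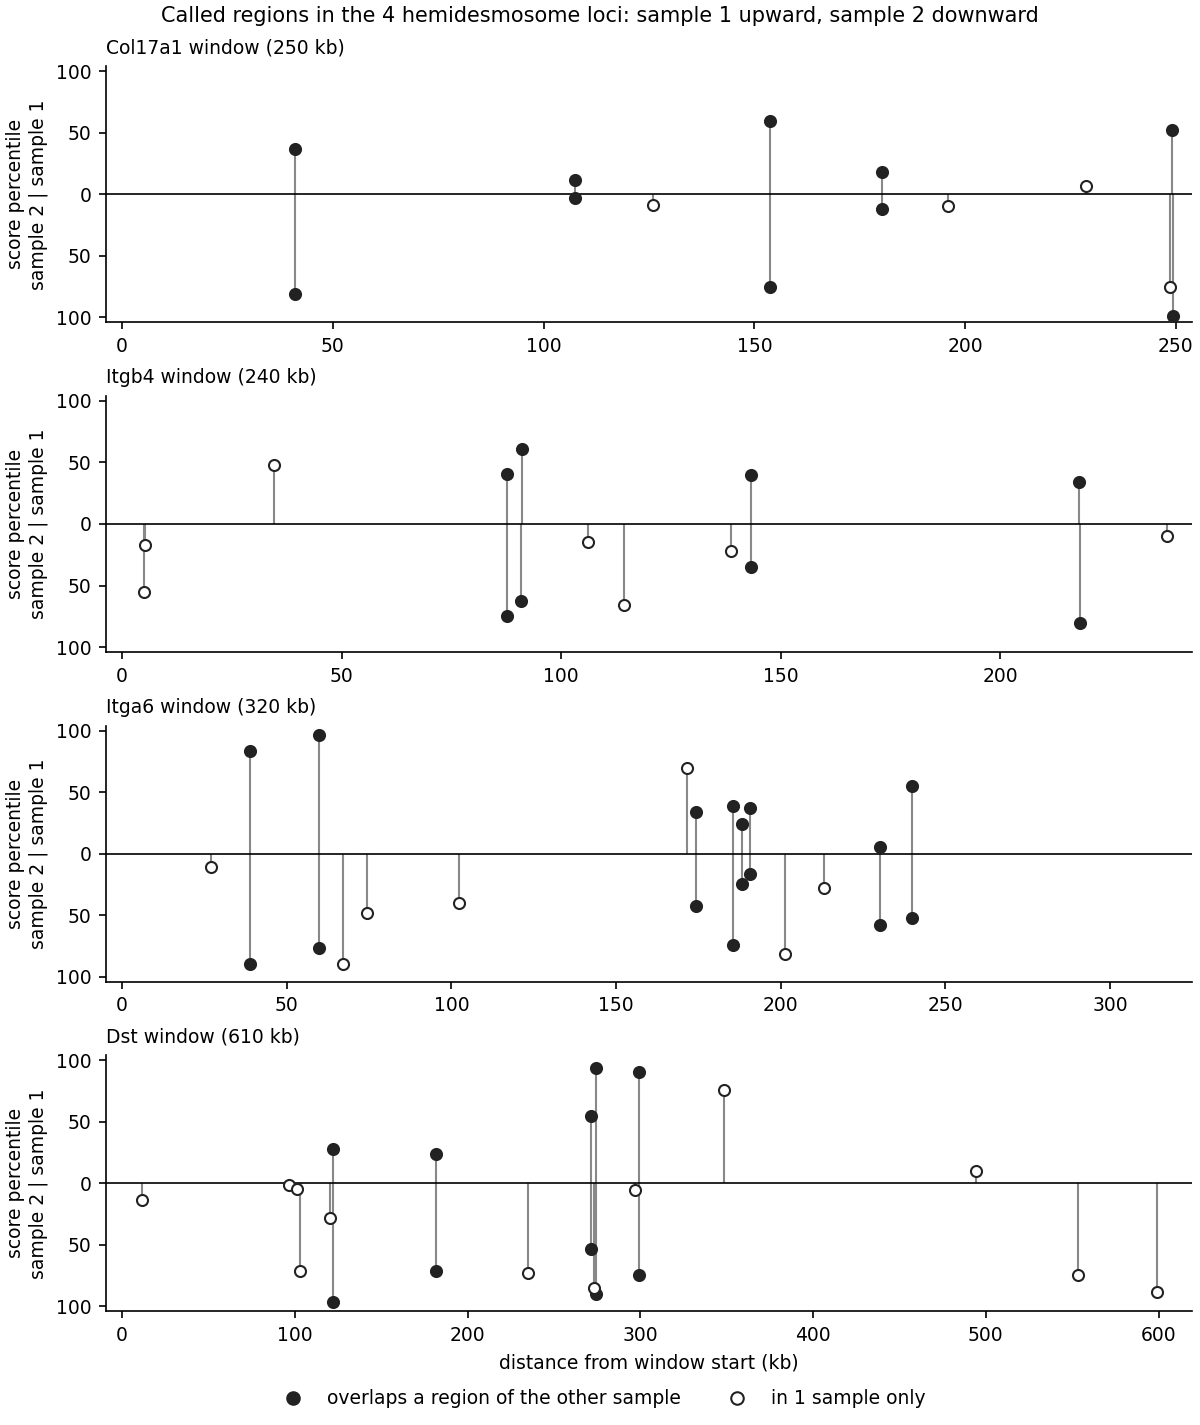
Called regions by distance from the window start (x axis, kb) and score percentile within the own list (y axis, sample 1 upward and sample 2 downward). Filled circles overlap a region of the other sample and open circles do not. The 8 shared regions of Itga6 fall into a pair near the window start and a group in the second part, and the upper part of the Dst window has regions in 1 sample only.

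Of the integrin genes, Itga6 encodes the α6 chain, which pairs with β4 in hemidesmosomes and with β1 elsewhere. Its shared regions fell into 2 stretches separated by 114.4 kb without a shared region (71539871 to 71654276). The lower stretch held the 2 highest-ranked shared regions of the locus. The first, chromosome 2 from 71518823 to 71519015, scored 256.26 in sample 1 (percentile 83.3) and 147.27 in sample 2 (percentile 89.7). The second, from 71539788 to 71539870, scored 373.84 (percentile 96.3) and 115.00 (percentile 76.8), and its sample 1 score was the highest of any region in the 4 loci. Both therefore ranked high in both lists.

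The other 6 shared regions of Itga6 ranked lower. A group of 4 lay with midpoints 11.2, 2.67 and 2.32 kb apart, from 71654277 to 71654414, from 71665543 to 71665614, from 71668170 to 71668321 and from 71670493 to 71670644. Their sample 1 scores were 140.04, 149.02, 119.81 and 147.51, and their sample 2 scores were 75.33, 110.75, 61.74 and 57.51. All of the group were below the median score of sample 1, which was 167.85, and only the second was above that of sample 2, which was 82.14. The last shared regions ran from 71710123 to 71710308 and from 71719834 to 71719998. The former scored 80.58 and 89.79, the lowest sample 1 score among the members, and the latter scored 176.29 and 84.12.

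In a single sample, the Itga6 window had 1 region of sample 1 and 6 of sample 2. The sample 1 region, from 71651371 to 71651448, scored 207.76 (percentile 69.7) and lay 2828 bp from the nearest sample 2 region, at the lower end of the group of 4. Of the sample 2 regions, which scored 54.60 to 145.68, the highest ran from 71546924 to 71546980 (percentile 89.5) and lay 7053 bp from the nearest sample 1 region. A single-sample region could thus rank as high in its list as the shared ones.

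Itgb4 encodes the β4 chain, which has a long cytoplasmic tail. Its 4 shared regions were of middle rank in sample 1, at percentiles 40.3, 60.7, 39.6 and 33.8 in order along the chromosome. The first 2 had midpoints 3.28 kb apart, on chromosome 11 from 115817596 to 115817762 (scores 152.50 in sample 1 and 112.08 in sample 2) and from 115820926 to 115821001 (188.15 and 95.37). The next ran from 115873255 to 115873397 and scored 150.85 and 69.06. The last ran from 115947908 to 115948164, 257 bp wide when merged, and scored 140.14 and 121.22. The scores of these regions ran from 140.14 to 188.15 in sample 1 and from 69.06 to 121.22 in sample 2. Their percentiles covered a wider range in sample 2, 35.3 to 80.4, than in sample 1, 33.8 to 60.7. A stretch of 74.5 kb between the last 2 shared regions (115873398 to 115947907) held no region of either list.

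The single-sample regions of Itgb4 were 1 in sample 1 and 6 in sample 2. The sample 1 region ran from 115764494 to 115764593 and scored 164.43, above 3 of the 4 shared ones. Those of sample 2 scored 54.13 to 98.72, the highest from 115844289 to 115844394, and 4 of the 6 scored below 70.03, the lowest score in the sample 1 list. Whether the score has 1 scale over both lists was not tested.

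Col17a1 encodes collagen XVII, a transmembrane collagen. Its 5 shared regions covered a wide span of scores. The weakest, chromosome 19 from 47727398 to 47727522, scored 92.47 in sample 1 (percentile 11.8) and 50.80 in sample 2 (percentile 2.81). The next weakest, from 47800220 to 47800392, scored 105.35 and 54.68 (percentiles 17.7 and 11.6). These 2 regions were therefore found in both samples although they ranked low in both. The region from 47773610 to 47773708 scored 186.08 and 112.77 and was the only shared region of the locus that was narrow in both samples. The region from 47660834 to 47661019 scored 146.35 and 121.89. The last, from 47869090 to 47869310, scored 171.67 and 242.32, the highest sample 2 score of any member (percentile 98.9), while its sample 1 percentile was 52.2.

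That last region lay at the limit of the window, with its midpoints 0.811 kb inside it in sample 1 and 0.7605 kb in sample 2. Just outside the same limit, at 2.126 kb, a further shared region ran from 47872082 to 47872171 in sample 1 with a score of 88.14. The nearest shared region inside the window lay farther away, past 68.7 kb without a shared region. A sample 2 region without a partner, from 47868535 to 47868587, lay 502 bp from it and scored 112.26. The other single-sample regions of the locus scored 82.44 in sample 1 (47848567 to 47848688) and 53.28 and 54.06 in sample 2.

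Dst encodes dystonin, a large plakin with epithelial, neural and muscle forms, of which the epithelial form belongs to the hemidesmosome plaque. The strongest shared region of the 4 loci by the mean of its percentiles lay here, on chromosome 1 from 34134206 to 34134309. It scored 328.37 in sample 1 (percentile 93.4) and 147.44 in sample 2 (percentile 89.8). It was flanked by the shared region from 34131184 to 34131321, with scores of 174.15 and 84.47 and a midpoint 3.005 kb away, and by the one from 34159279 to 34159363, with scores of 301.72 and 111.17, at 25.1 kb. A sample 2 region without a partner, from 34133386 to 34133450 with a score of 130.84, lay 755 bp from a sample 1 region in this group. The central part of the Dst window thus held its 3 highest sample 1 scores among shared regions.

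The other shared regions of Dst were the 2 nearest the window start. The region from 33982228 to 33982317 scored 128.44 in sample 1 and 191.67 in sample 2, which placed it at percentile 27.6 in the former and 96.6 in the latter. The region from 34041562 to 34041746 scored 119.57 and 106.24 (percentiles 23.6 and 71.6). The ranks of these 2 regions differed between the samples more than those of the central group.

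The upper part of the Dst window, past the region that ends at 34159363, held no shared region. It contained 2 regions of sample 1, from 34208335 to 34208406 with a score of 226.09 (percentile 75.6) and from 34354268 to 34354368 with a score of 89.32, and 2 of sample 2, from 34413075 to 34413237 with a score of 110.34 and from 34458964 to 34459019 with a score of 142.15 (percentile 88.2). The nearest regions of the other sample were 48992 bp or more away from each of these. Over the whole window, 10 sample 2 regions had no partner, and 5 of them scored below the lowest sample 1 score.

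The share of regions found in both samples was close to that of the whole lists. Of the 27 sample 1 regions, 22 were shared (81.5%, exact Clopper-Pearson 95% interval 61.9 to 93.7%), against 80.4% of all sample 1 regions. Of the 47 sample 2 regions, 22 were shared (46.8%, 32.1 to 61.9%), against 48.4% of all sample 2 regions. By locus, the sample 1 share ran from 71.4% at Dst (29.0 to 96.3%) to 88.9% at Itga6 (51.8 to 99.7%). The sample 2 share ran from 33.3% at Dst (11.8 to 61.6%) to 62.5% at Col17a1 (24.5 to 91.5%). These intervals cover counting error only, rest on few regions and overlap widely. A difference in sharing between the loci was not tested. Of the 25 sample 2 regions without a partner, 13 scored below the lowest sample 1 score, a part like the 49.0% of all sample 2 regions without a partner.

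By the mean of the percentiles in both lists, the shared regions of the 4 loci had a median of 56.7, against 56.6 over all 20574 shared regions. Within the single lists the medians lay apart from those of all shared regions, in opposite directions. The median percentile of the 22 regions was 38.9 in sample 1 and 72.9 in sample 2, against 53.2 and 62.8 for all shared regions. The percentiles of the 22 ran from 5.38 to 96.3 in sample 1 and from 2.81 to 98.9 in sample 2. Whether the medians differ beyond that spread was not tested. Of the 22, 9 scored above the median of the whole sample 1 list and 16 above that of the whole sample 2 list. The 9 belonged to the 16. The matching shares over all shared regions were not computed, and the median percentile of all shared regions was likewise higher in sample 2. The percentile was higher in sample 1 for 9 of the 22 pairs, against 41.0% of all 20651 pairs. Spearman's rho between the scores was 0.46 and Pearson's r 0.30 over the 22 pairs, a description of regions that share their libraries and lanes, beside 0.176 and 0.307 over all pairs.

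**Figure D2:**
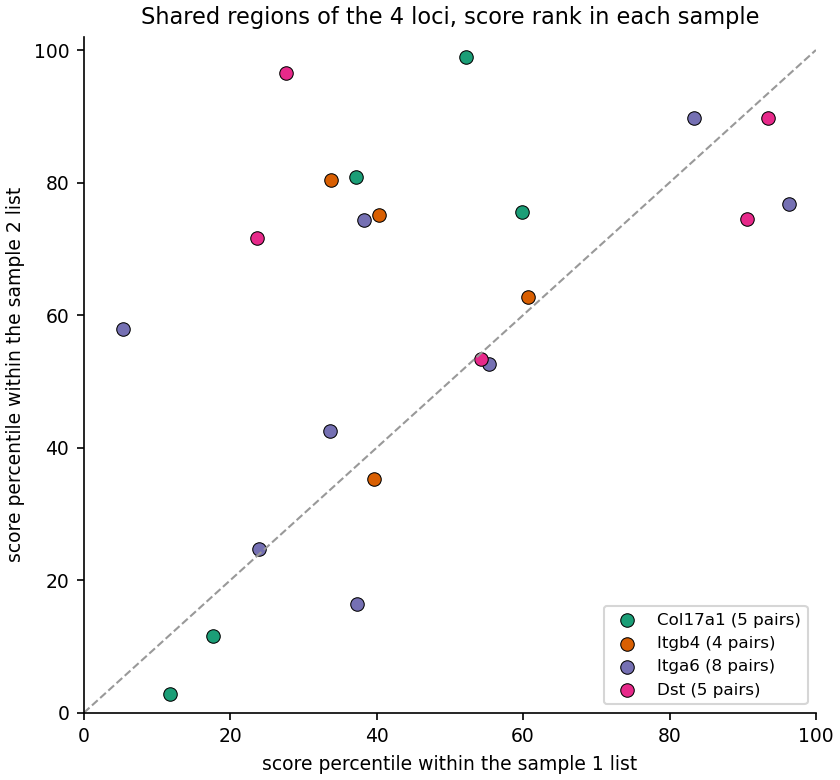
Score percentile of each of the 22 shared regions within the sample 1 list (x axis) and the sample 2 list (y axis), coloured by locus, with the line of equal percentiles dashed. The median is 38.9 on the x axis and 72.9 on the y axis, and the regions of Dst and Itga6 at the upper right rank high in both samples.

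Width class and edges also varied among the members. Of the 22 pairs, 7 were narrow in both samples and 6 were wide in both. A further 5 were narrow only in sample 1 and 4 only in sample 2. Over all pairs these classes made up 36.4%, 23.4%, 27.2% and 13.1%. Merged, the shared regions were 72 to 257 bp wide, with a median of 147.5 bp. The midpoints in the samples lay a median of 22 bp and at most 70.5 bp apart, against a median of 14.5 bp over all pairs. In 11 of the 22 pairs a start or an end of the sample 2 region lay within 5 bp of that of sample 1, against 56.4% of all pairs. The closest single edges were the starts of the Itgb4 region at 115873255 and the Itga6 region at 71665543, each 1 bp apart. The ends of the Dst region at 34041562 were also 1 bp apart, and those of the Itga6 region at 71539788 were at the same base. A close edge did not mean a close match. The starts of that Dst region lay 126 bp apart, and its overlap, 31.4% of the merged width, was the lowest of the 22. The ends of that Itgb4 region lay 73 bp apart. The loci thus held both kinds of width.

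The density of shared regions was compared with the genome and with the surroundings of each locus. Over the 4 windows it was 15.5 per Mb, 1.94 times that of chromosomes 1 to 19 and X (exact Poisson 95% interval 1.22 to 2.94, which treats regions as independent). By locus the ratio was 3.13 at Itga6 (1.35 to 6.17), 2.51 at Col17a1 (0.814 to 5.85), 2.09 at Itgb4 (0.569 to 5.35) and 1.03 at Dst (0.333 to 2.40). Against the density of their own chromosomes the ratios were 2.98 for Itga6, 2.01 for Col17a1, 1.55 for Itgb4 and 1.18 for Dst. The interval lay above 1 at Itga6 alone among the single loci.

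Regions are not spread evenly over the genome, so each count was also set beside all adjoining windows of the same length along chromosomes 1 to 19 and X. At least 8 shared regions were held by 4.44% of the 8034 windows of 320 kb, the length of the Itga6 window. For Col17a1, 11.5% of the 10287 windows (250 kb) reached its count of 5, and for Itgb4, 17.8% of the 10715 windows (240 kb) reached its count of 4. For Dst, 44.6% of the 4207 windows (610 kb) reached its count of 5. The median window held 2, 1, 1 and 4 shared regions at the lengths of Itga6, Col17a1, Itgb4 and Dst. Itga6 was thus in the dense tail of the distribution and Dst near its middle. These percentages describe the lists and are not tests, and windows over assembly gaps were not left out.

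**Figure D3:**
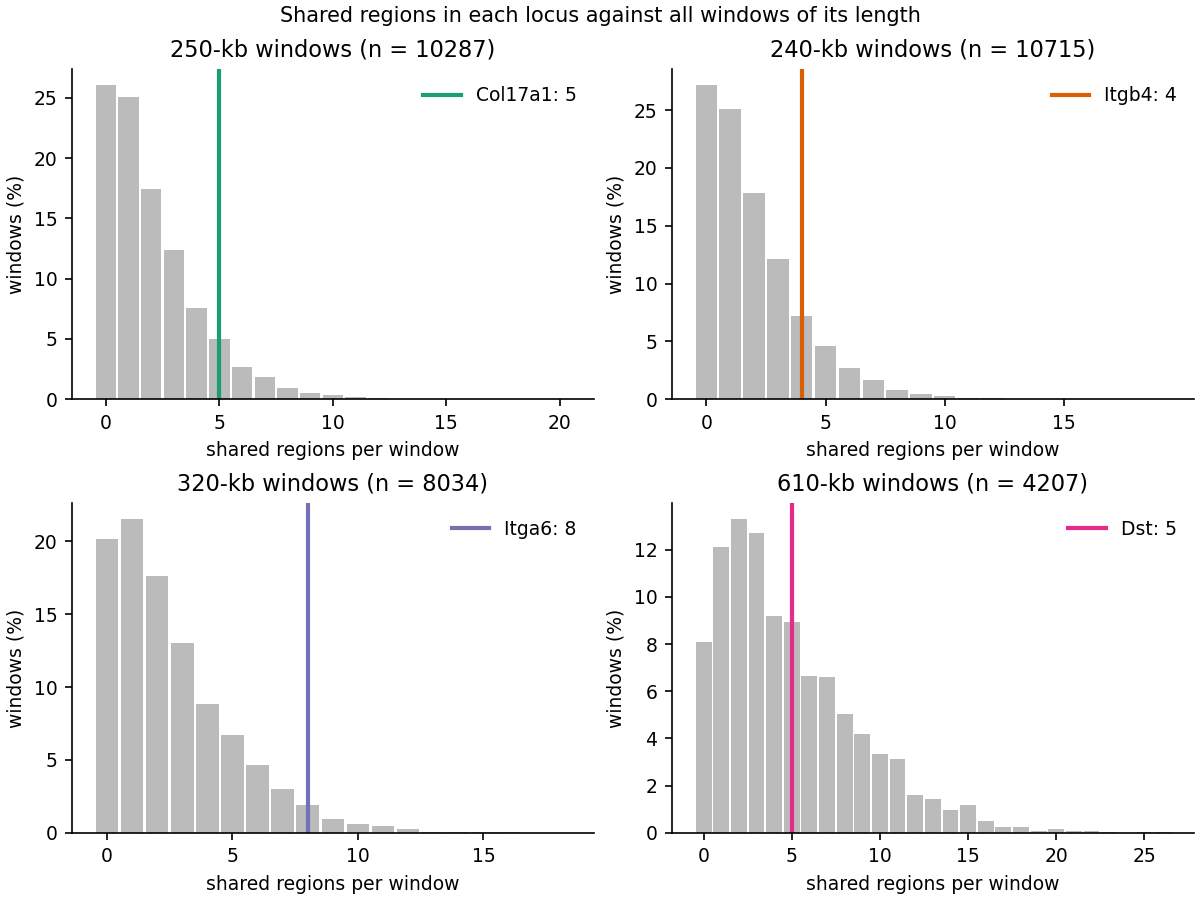
Share of windows (y axis, %) by their number of shared regions (x axis), for windows of the length of each locus, with the count of the locus as a vertical line. The lines stand at 5 for Col17a1, 4 for Itgb4, 8 for Itga6 and 5 for Dst, and 4.44% of windows reach the count of Itga6.

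The surroundings of the loci held counts close to those of the loci. The stretches of equal length directly below the windows held 24 shared regions in all and those directly above held 23, against 22 in the windows. At Itga6 the window held 8, the lower flank 6 and the upper flank 3. At Col17a1 the window held 5, fewer than the 7 and 8 of its flanks. At Itgb4 the window held 4, between the 6 and 3 of its flanks. At Dst the window held 5, the lower flank also 5 and the upper flank 9. The count per window was therefore above both flanks only at Itga6, and this difference was not tested. In the single lists the same comparison gave 27 regions in the windows against 27 and 28 in the flanks for sample 1, and 47 against 44 and 46 for sample 2.

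**Figure D4:**
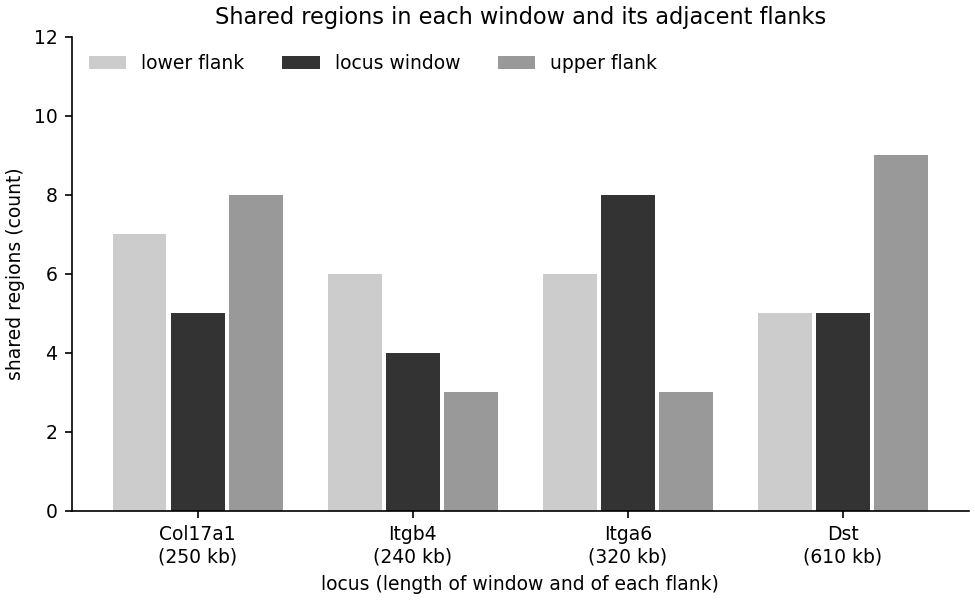
Number of shared regions (y axis, count) in each locus window and in the adjacent stretches of equal length below and above it. Itga6, with 8 against 6 and 3, is the only locus whose window holds more than both flanks.

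At the other window limits, the nearest regions outside ranged from low to high scores. Past the upper limit of Itga6, at 12.84 kb, a shared region from 71812793 to 71812881 in sample 1 scored 429.51 there (percentile 98.2) and 64.50 in sample 2. The last region inside that limit was 80.12 kb away from it. Past the upper limit of Dst, at 0.62 kb, a sample 2 region from 34470594 to 34470647 without a partner scored 117.98, and past that of Itgb4, at 1.177 kb, one from 115971096 to 115971259 scored 67.39. Just inside, a sample 2 region of Itgb4 scored 54.13 at 1.989 kb. Below the Col17a1 window, at 1.7625 kb, a sample 2 region without a partner scored 72.12.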

How the data were processed

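The files are lists of called regions, 1 per replicate, with chromosome, start, end, name and a score, without a header. Per the labels' protocols, a dispase digestion of 2 hours at 37 °C freed the epithelium before fixation, and 24 µg of chromatin went into each immunoprecipitation. Both libraries were sequenced together in 2 lanes of 50-cycle single-end reads, per the labels' protocols. Bowtie 0.12.7, bedtools 2.11.2 and mm9 are named in the submitters' processing notes, and the region names carry the prefix of MACS. For thresholds and controls, the sources used here give nothing. The score was deposited by the authors without a stated meaning; the lowest was 70.03 in sample 1 and 50.00 in sample 2, so the cutoffs may have differed, and it was used as a rank within each list. No read counts are part of the lists, so no count test was run.

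Regions were compared with numpy 2.4.6, pandas 2.3.3 and scipy 1.17.1 in Python 3.11.15, and plotted with matplotlib 3.10.9. On simulated data, the overlap code was tested by planting sample 1 regions shifted a short way at unchanged width, and 12000 of 12000 were found. Pairs of unlike width were not planted. On the deposited lists, bedtools 2.31.1 gave the same count as the code, 20582 shared sample 1 regions. Regions that overlapped between the lists were joined into 1, and the rank of such a merged region is the mean of its percentiles in the lists. The boundary of narrow regions was the emptiest 5-bp bin between the most frequent shorter and longer widths of each list. Coordinates count from 1.

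The loci, the windows and the choices above were made with earlier results of these data known. The rule for named items was to give every shared region of a locus, and of the single-sample regions the highest-scoring per locus and list; any other region was picked with its values in view. The comparisons with flanks and edges were added after the data were seen. Gene parts, region sequences and the planned list of other hemidesmosome and basement membrane genes need mm9 and were not analysed here. The alternatives were reciprocal overlap, stricter score limits, shorter windows, either list alone and each locus left out.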

Additional observations from a re-analysis of the deposited data

How the results depend on the processing

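The count of 22 shared regions fell to 9 with the upper 50% of each list by score and to 14 without the Itga6 locus, an alternative added after seeing the data; both use fewer regions by construction. With either list alone, where every region counts, the windows held 27 (sample 1) to 47 (sample 2). In the other settings it was within 1.5 times of 22: 18 with a reciprocal overlap of at least 50%, 17 with sample 2 at or above the lowest sample 1 score, and 18 in windows shortened by 50 kb on either side. The density ratio stayed within the interval of the main setting (1.22 to 2.94) in all 10 settings, from 1.59 without Itga6 to 2.63 without Dst. No interval was computed for the ratio in these settings. Whether the ratio without Itga6, the only single locus with an interval above 1, exceeds 1 was therefore not tested. The shares of both samples stayed within their intervals in all 8 settings run for them, from 62.96 to 85.7% in sample 1 and from 34.6 to 58.6% in sample 2. The intervals are wide, so this limits little. The median mean percentile ran from 39.6 in sample 1 alone to 75.5 in the upper 50%. The former is a percentile within 1 list over all its regions in the windows, and the latter is high by construction. The spread used as a limit (SD 24.0) is that of the sample medians themselves, 38.9 and 72.9, so staying within it shows little. No paired analysis was possible because the study has 1 group. Depth is unknown, so a region in 1 sample only may have been missed in the other.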
